A study of Homo sapiens with 8 samples.

Results

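The transcripts of 7 ligands that natural killer (NK) cells recognise through activating receptors were followed in 2 human lung cancer cell lines: MICA, MICB, ULBP1, ULBP2, ULBP3, RAET1G and NCR3LG1. They were chosen by gene symbol, as ligands of the receptors NKG2D and NKp30, from the 61228 gene names in the count tables, and all 7 were listed. H1975 and HCC44, both labelled as wild type in genotype, received the solvent DMSO or the compound ACBI1 over 96 hours. This gave 4 groups of 2 libraries each. ACBI1 is a degrader that joins a binder of bromodomains found in the chromatin remodelling proteins SMARCA2, SMARCA4 and PBRM1 (SWI/SNF complexes) to a ligand of the ubiquitin ligase subunit VHL. The labels give its concentration as 1 mM, a unit that is uncertain because degraders are used at far lower concentrations. Nothing in the labels says whether replicates were separate cultures, so p-values measure only the spread between these libraries, which may be technical.

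NK cells integrate signals from activating and inhibitory receptors when they meet another cell. NKG2D binds a family of MHC class I-like proteins that stressed, infected or transformed cells display: MICA and MICB span the membrane, ULBP1, ULBP2 and ULBP3 are held by a lipid (GPI) anchor, and RAET1G is also called ULBP5. NCR3LG1 encodes B7-H6, a B7 family protein that binds NKp30. The ligand is made by the tumour cell, and the receptor is on the NK cell. Only transcripts were measured here, not protein on the cell surface, and in bulk RNA fewer expressing cells and less RNA per cell cannot be told apart.

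The first 6 of these genes sit on chromosome 6 of GRCh38 and NCR3LG1 on chromosome 11, at positions taken from GENCODE release 29. MICA (chr6:31399784-31415315) and MICB (chr6:31494881-31511124), both on the plus strand, lie in the MHC region. RAET1G (chr6:149916878-149923121, minus strand), ULBP2 (chr6:149942000-149949235, plus), ULBP1 (chr6:149964007-149973710, plus) and ULBP3 (chr6:150063150-150069095, minus) lie in a separate cluster. NCR3LG1 spans chr11:17351726-17377341 on the plus strand. The sequences before the RefSeq start sites of 5 ligands are shown because these relatives, some of them neighbours, moved in different directions. All 7 symbols matched RefSeq's promoter table, and the sequences are RefSeq's for GRCh38.p14, 5′ to 3′ on the gene's strand. Each runs from 250 bases before the RefSeq start up to that start, or to a GENCODE exon of the gene met on the way. For MICA and MICB the printed sequence lies inside the GENCODE span given above, after an earlier annotated start. Capitals mark matches, on either strand, to the motifs named in the next paragraph.
MICA (chr6:31403345-31403578, plus strand): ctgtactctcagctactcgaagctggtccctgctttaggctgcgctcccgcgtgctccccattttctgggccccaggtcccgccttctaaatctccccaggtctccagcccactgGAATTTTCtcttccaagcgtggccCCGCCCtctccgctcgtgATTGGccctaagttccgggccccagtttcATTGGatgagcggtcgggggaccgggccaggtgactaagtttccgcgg
MICB (chr6:31497895-31498085, plus strand): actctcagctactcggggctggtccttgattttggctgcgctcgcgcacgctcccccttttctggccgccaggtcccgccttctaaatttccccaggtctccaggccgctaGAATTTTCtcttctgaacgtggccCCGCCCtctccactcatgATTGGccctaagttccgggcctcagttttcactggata
ULBP1 (chr6:149963693-149963942, plus strand): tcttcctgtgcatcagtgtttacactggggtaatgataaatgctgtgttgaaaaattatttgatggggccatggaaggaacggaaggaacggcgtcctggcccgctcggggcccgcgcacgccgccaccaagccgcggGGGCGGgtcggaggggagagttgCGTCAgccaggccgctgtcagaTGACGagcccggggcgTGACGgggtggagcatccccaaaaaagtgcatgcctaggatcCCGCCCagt
ULBP2 (chr6:149941764-149941999, plus strand): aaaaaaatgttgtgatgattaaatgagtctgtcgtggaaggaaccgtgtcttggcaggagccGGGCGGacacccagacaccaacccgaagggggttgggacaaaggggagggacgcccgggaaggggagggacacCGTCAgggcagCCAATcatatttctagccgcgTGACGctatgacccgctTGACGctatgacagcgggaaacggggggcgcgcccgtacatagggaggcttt
ULBP3 (chr6:150069122-150069371, minus strand): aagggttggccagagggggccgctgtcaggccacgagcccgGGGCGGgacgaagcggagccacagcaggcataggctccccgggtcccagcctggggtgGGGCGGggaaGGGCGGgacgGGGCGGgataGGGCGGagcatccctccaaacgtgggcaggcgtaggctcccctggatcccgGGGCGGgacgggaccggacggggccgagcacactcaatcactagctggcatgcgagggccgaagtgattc

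Motifs were searched on both strands in the 250 bases before the RefSeq start, with the base before the start counted as -1 and each match given by its leftmost base. The heat shock element core GAANNTTC occurred once in MICA, at -135, and once in MICB, at -139, and is present in 5.78% of 35116 promoters of the same length. The core TGACG of the cyclic AMP response element occurred 3 times each in ULBP1 (-89, -67 and -51) and ULBP2 (-115, -83 and -66), and 21.2% of promoters hold it at least once. The GC box GGGCGG occurred 6 times in ULBP3, and 42.6% of promoters hold it at least once. Shares of promoters with as many matches were not computed. The GC box was also found in each of the other 6 promoters. The CCAAT box, present in 32.0% of promoters, occurred in MICA, MICB, ULBP2 and RAET1G. None of the 7 windows held the TATAAA box (10.7% of promoters). Nor did they hold the AP-1 motif TGANTCA (6.57%). The full cyclic AMP response element TGACGTCA (1.65%), which contains the core above, was also not matched. The C/EBP-ATF motif TGATGNAA (3.14%) was not matched either. These matches describe letters only.

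Counts assigned to genes came to 62467286 to 70455517 per library. Levels are given as CPM, the count relative to library size with TMM scaling, and 1 CPM stood for 62.5 to 75.2 reads. All 7 ligands passed the filter on low counts and were among 21307 genes tested with edgeR's quasi-likelihood test. A gene was called where its Benjamini-Hochberg adjusted p over all tested genes was under 0.05, and log2 fold changes are given ± SE. The 5 epithelial markers (EPCAM and keratins) summed to 4940 to 5140 CPM in H1975 DMSO, 2230 to 2650 in H1975 ACBI1, 936 to 976 in HCC44 DMSO and 1190 to 1650 in HCC44 ACBI1. Of 12 markers of NK cells and other leukocytes, NCR1, NCR2 and PRF1 had no count in any library, and the list summed to 0.495 to 1.09 CPM. In the same order of groups, the 4 fibroblast markers summed to 45 to 69.7, 25 to 30.3, 74.2 to 92.5 and 207 to 411 CPM, with DCN at 0 throughout. The 5 macrophage markers summed to 16.6 to 18.8, 11.3 to 16, 3.97 to 4.04 and 1.62 to 2.33 CPM, of which CSF1R made up 15.2 ± 1 and 12.3 ± 3.2 CPM (SD, n = 2) in H1975 DMSO and ACBI1. CD14 was at 3.38 ± 0.079 CPM in HCC44 DMSO and 1.05 ± 0.47 CPM in HCC44 ACBI1, and CD163 had at most 1 count in any library. In HCC44, KRT7 went from 441 ± 26 to 936 ± 260 CPM and EPCAM rose (0.84 ± 0.12). KRT8 fell there (-0.52 ± 0.09), and KRT18 and KRT19 were not called. Among the fibroblast markers in HCC44, COL1A1 went from 80.3 ± 13 to 302 ± 140 CPM and LUM from 0.868 ± 0.13 to 3.99 ± 0.8 CPM, both called. PDGFRB, at 2.2 ± 0.033 CPM under DMSO and 2.9 ± 0.077 CPM under ACBI1, was not called. The part of these lists in the ligand results was not tested.

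In cells given DMSO, MICA, MICB, ULBP2 and NCR3LG1 were higher in HCC44 than in H1975, and ULBP1 and ULBP3 were lower. Thus 4 of the 7 ligands were called higher and 2 lower, where 67.9% of all tested genes were called (31.6% higher and 36.4% lower). NCR3LG1 stood at 23.9 and 24.8 CPM in the DMSO libraries of H1975 and at 104 and 111.9 CPM in those of HCC44, a log2 difference of 2.15 ± 0.09 (adjusted p 6.75e-09). MICB was at 12.2 CPM in both H1975 libraries and at 50.4 and 51.5 CPM in the HCC44 pair, a difference of 2.07 ± 0.11 (adjusted p 4.38e-08). No HCC44 library overlapped an H1975 library for either gene. MICA differed by 0.71 ± 0.12 and ULBP2 by 0.83 ± 0.15 in the same direction, while ULBP1 differed by -0.71 ± 0.16 and ULBP3 by -0.70 ± 0.18. RAET1G, at 0.673 ± 0.052 CPM in H1975 and 0.49 ± 0.21 CPM in HCC44 (mean ± SD, n = 2), was not called (adjusted p 0.313, 95% interval of the log2 difference -1.31 to 0.40). These DMSO libraries are also the controls for ACBI1, so the comparisons are not independent.

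Levels of different genes were compared per kilobase of exon. In H1975 DMSO, ULBP3 led at 16.1 ± 1 CPM per kb (SD, n = 2), followed by ULBP2 (7.43 ± 0.19), MICA (7.34 ± 0.051), ULBP1 (6.41 ± 1.3), MICB (4.35), NCR3LG1 (3.78 ± 0.1) and RAET1G (0.453 ± 0.035). ULBP2, MICA and ULBP1 overlapped between libraries there. In HCC44 DMSO the order was MICB (18.2 ± 0.27), NCR3LG1 (16.8 ± 0.87), ULBP2 (13.2 ± 0.79), MICA (12 ± 0.92), ULBP3 (9.85 ± 0.16), ULBP1 (3.92 ± 0.15) and RAET1G (0.33 ± 0.14). Only ULBP2 and MICA overlapped in that order. With ACBI1 the order in H1975 was ULBP3 (12.7 ± 0.59), ULBP1 (11.6 ± 1.5), MICA (9.57 ± 1.3), NCR3LG1 (5.88 ± 0.1), MICB (4.97 ± 0.51), ULBP2 (4 ± 0.35) and RAET1G (0.165 ± 0.045), and ULBP3 and ULBP1 overlapped. In HCC44 it was MICB (21.1 ± 0.9), MICA (20.5 ± 0.32), NCR3LG1 (14.5 ± 0.26), ULBP1 (12.1 ± 1.3), ULBP2 (3.78 ± 0.31), ULBP3 (3.44 ± 0.97) and RAET1G (0.149 ± 0.044), with overlap between MICB and MICA and between ULBP2 and ULBP3. RAET1G was the lowest of the 7 in each of the 8 libraries.

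**Figure D1:**
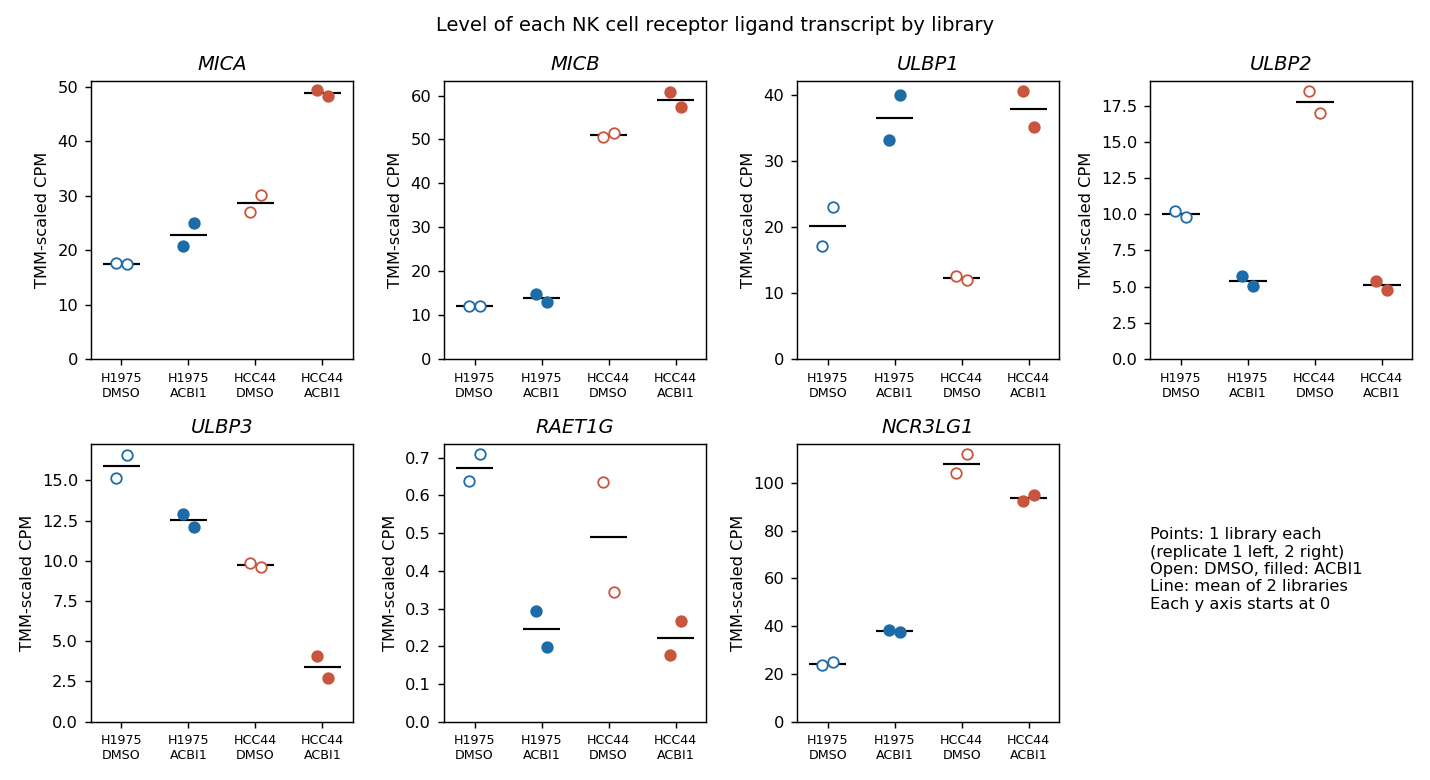
TMM-scaled CPM (y axes, each from 0) of the 7 ligand transcripts in the 8 libraries, grouped by line and treatment (x axes), with DMSO as open and ACBI1 as filled points and a line at each group's mean. MICA and ULBP1 are higher with ACBI1 in both lines, ULBP2 is lower in both, and NCR3LG1 goes from 23.9 and 24.8 to 38.3 and 37.4 CPM in H1975.

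With ACBI1, the NKG2D ligand transcripts moved in both directions within each line. MICA and ULBP1 rose in both lines, ULBP2 fell in both, ULBP3 fell in HCC44, RAET1G fell in H1975, and the NKp30 ligand NCR3LG1 rose in H1975. In H1975, 3 of the 7 ligands rose and 2 fell, where 31.3% of all tested genes were called (14.6% higher and 16.7% lower). In HCC44, 2 rose and 2 fell, where 34.9% were called (17.5% higher and 17.4% lower). The median log2 fold change of the 7 was 0.19 in H1975 and -0.21 in HCC44, beside -0.01 and 0.01 over all tested genes. For 4 of the 7 the response itself differed between lines, where 18.6% of all tested genes were called (10.2% higher and 8.4% lower in HCC44).

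ULBP1 had the largest rise of the 7 in both lines. Its H1975 libraries read 17.2 and 23.1 CPM under DMSO against 33.2 and 40 CPM under ACBI1. Its HCC44 libraries read 12.6 and 12 CPM under DMSO against 40.7 and 35.1 CPM under ACBI1. Every ACBI1 library was above every DMSO library, and the ACBI1 libraries of the lines overlapped. The log2 fold change was 0.86 ± 0.16 for H1975 (adjusted p 0.00213), or 1.82-fold, and 1.62 ± 0.16 for HCC44 (adjusted p 3.74e-05), or 3.08-fold. The rise was larger in HCC44 by 0.76 ± 0.22 (adjusted p 0.0351). This difference was not called with library totals in place of TMM factors (0.65) or without any 1 of 5 libraries: H1975 DMSO replicate 2 (0.48), H1975 ACBI1 replicate 1 (0.60), HCC44 DMSO replicate 1 (0.80), HCC44 DMSO replicate 2 (0.73) or HCC44 ACBI1 replicate 1 (0.66).

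MICA read 17.6 and 17.4 CPM under DMSO in H1975, against 20.7 and 25 CPM under ACBI1. For HCC44 the values were 27.1 and 30.2 CPM under DMSO, against 49.5 and 48.4 CPM under ACBI1. The groups did not overlap in either line, and the ACBI1 libraries of H1975 lay further apart than its DMSO libraries. On the log2 scale MICA rose by 0.38 ± 0.12 in H1975 (adjusted p 0.0326). Its rise in HCC44 was 0.77 ± 0.12 (adjusted p 0.000592). The H1975 call was lost without DMSO replicate 1 (0.38), DMSO replicate 2 (0.43) or ACBI1 replicate 2 (0.26). Between the lines the response differed by 0.39 ± 0.17, which was not called (adjusted p 0.136, 95% interval 0.02 to 0.76).

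MICB, the closest relative of MICA, read 12.2 CPM in both DMSO libraries of H1975, against 14.9 and 12.9 CPM under ACBI1. For HCC44 the values were 50.4 and 51.5 CPM, against 60.9 and 57.3 CPM. Its ACBI1 libraries were above its DMSO libraries in each line, but neither change was called. The log2 fold changes were 0.19 ± 0.11 in H1975 (adjusted p 0.207, 95% interval -0.05 to 0.43) and 0.21 ± 0.11 in HCC44 (adjusted p 0.145, 95% interval -0.02 to 0.45). The lines differed by 0.02 ± 0.15 (95% interval -0.32 to 0.35). With library totals, which raise the median gene by 0.203 in H1975 and 0.091 in HCC44, MICB was called higher in H1975 (0.40) and HCC44 (0.30). MICA and MICB share few identical stretches, 1.89% and 1.61% of the distinct 50-base windows of their annotated transcripts. Their summed counts rose by 0.31 ± 0.09 (adjusted p 0.0211) and 0.44 ± 0.09 (adjusted p 0.00259) in the same order of lines. MICA also overlaps the non-coding gene HCP5 over 62 exonic bases on the same strand.

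ULBP2 read 10.2 and 9.84 CPM under DMSO in H1975, against 5.73 and 5.06 CPM under ACBI1. For HCC44 the values were 18.5 and 17 CPM, against 5.39 and 4.80 CPM. The groups were apart in both lines, and the ACBI1 libraries of the lines overlapped. ULBP2 fell by 0.89 on the log2 scale in H1975 (SE 0.15 and adjusted p 0.00149), a 1.86-fold decrease. In HCC44 it fell by 1.80 (SE 0.15 and adjusted p 1.68e-05), a 3.49-fold decrease. The fall was larger in HCC44, with a difference of -0.91 ± 0.21 (adjusted p 0.0141) that was not called without HCC44 DMSO replicate 1 (-0.85).

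ULBP3 fell in HCC44, with 9.84 and 9.62 CPM under DMSO and 4.08 and 2.72 CPM under ACBI1, a log2 fold change of -1.52 ± 0.19 (adjusted p 0.000164). Its H1975 libraries read 15.1 and 16.6 CPM against 12.9 and 12.1 CPM. The H1975 groups did not overlap, but the change of -0.34 ± 0.18 was not called (adjusted p 0.173, 95% interval -0.73 to 0.05). The responses of the lines differed by -1.17 ± 0.26 (adjusted p 0.0108).

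RAET1G rested on few reads. Its H1975 counts were 41 and 48 under DMSO against 22 and 14 under ACBI1, and its HCC44 counts 40 and 22 against 11 and 17. It fell by 1.45 (SE 0.41, adjusted p 0.0214) in H1975, a call that was lost with DESeq2 (-1.42) and without H1975 DMSO replicate 2 (-1.32) or H1975 ACBI1 replicate 2 (-1.18). Its change in HCC44, -1.14 ± 0.44, was not called (adjusted p 0.067, 95% interval -2.10 to -0.17). Without HCC44 DMSO replicate 2 it was called (-1.51), and without HCC44 DMSO replicate 1 it was -0.64. The lines differed by 0.31 ± 0.61 (95% interval -1.03 to 1.65). Its exons overlap the antisense gene RAET1E-AS1 over 138 bases, and the strand setting of the counting is not given in the sources used here.

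NCR3LG1 rose in H1975, with 23.9 and 24.8 CPM under DMSO and 38.3 and 37.4 CPM under ACBI1, a log2 fold change of 0.64 ± 0.09 (adjusted p 0.000446). In HCC44, where it started higher, the values were 104 and 111.9 CPM against 92.3 and 94.7 CPM. That change of -0.21 ± 0.09 was not called (adjusted p 0.0838, 95% interval -0.40 to -0.02). The responses differed by -0.84 ± 0.12 (adjusted p 0.00138), which was called under every alternative run. Of the 7 ligands, NCR3LG1 was the one whose log2 fold changes had opposite signs in the lines. No 50-base window of its transcripts occurs in another annotated gene.

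**Figure D2:**
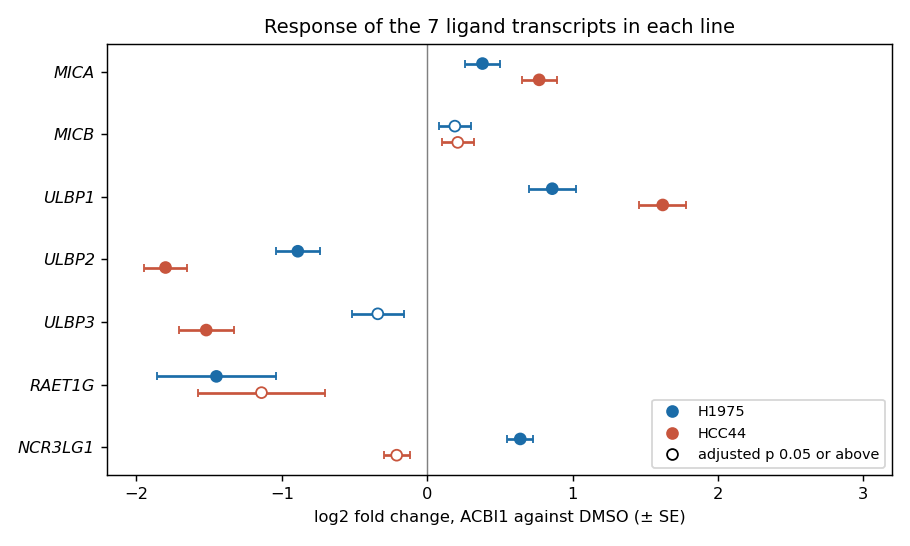
Log2 fold change ± SE (x axis) of each ligand (y axis) with ACBI1 against DMSO in H1975 (blue) and HCC44 (red), with open points where the adjusted p was 0.05 or above. MICA and ULBP1 lie to the right and ULBP2 to the left in both lines, while NCR3LG1 is at 0.64 in H1975 and -0.21 in HCC44.

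The make-up of the NKG2D ligand transcripts is described next, without a test. Summed over the 6 NKG2D ligands, the level was 42 ± 2.1 CPM per kb (SD, n = 2) under DMSO and 43 ± 1.3 under ACBI1 in H1975, and 57.5 ± 0.035 and 61.1 ± 3.7 in HCC44. With RAET1E and RAET1L added, the sums were 44.3 ± 1.7 and 43.5 ± 1.2 in H1975, so the order of the means turned, and 58 ± 0.067 and 61.2 ± 3.7 in HCC44. The H1975 libraries overlapped in both sums. MICA and MICB together made up 27.8 ± 1.6% of the sum under DMSO and 33.8 ± 0.71% under ACBI1 in H1975, and 52.6 ± 2.1% and 68.2 ± 2.2% in HCC44. The share of ULBP1 was 15.2 ± 2.4% and 27 ± 2.8% in H1975, and 6.8 ± 0.28% and 19.7 ± 0.85% in HCC44. These shares were the larger ones under ACBI1 in both lines. ULBP2 held 17.7 ± 1.4% under DMSO and 9.3 ± 1.1% under ACBI1 in H1975, and 23 ± 1.3% and 6.2 ± 0.14% in HCC44. ULBP3 held 38.2 ± 0.49% and 29.5 ± 2.3% in H1975, and 17.1 ± 0.28% and 5.6 ± 1.3% in HCC44. These sums and shares depend on the exon lengths used, and the annotation of the counting is not given. In CPM without lengths, all 7 ligands, NCR3LG1 included, summed to 96.9 to 105 under DMSO and 126 to 133 under ACBI1 in H1975. In HCC44 they summed to 223 to 233 and 243 to 253 CPM.

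**Figure D3:**
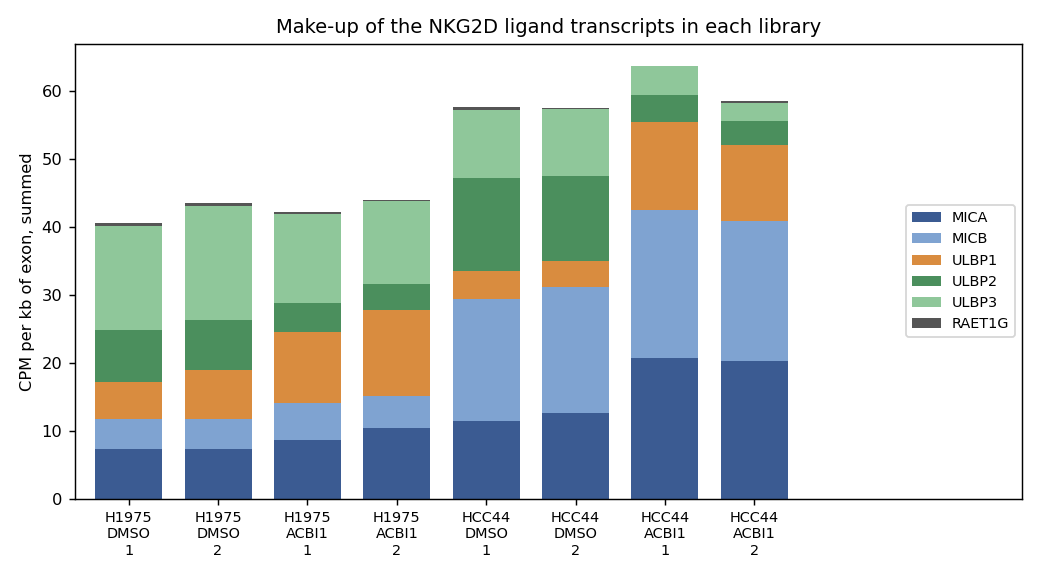
Stacked levels of the 6 NKG2D ligand transcripts (y axis, CPM per kb of exon) in each of the 8 libraries (x axis). Bar heights depend on the exon lengths used. The ULBP1 segment is larger and the ULBP2 and ULBP3 segments smaller with ACBI1 in both lines, while the group means of the whole bar are 42 and 43 in H1975 and 57.5 and 61.1 in HCC44.

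Within the ULBP and RAET1 cluster, ULBP1 stood apart in direction from the other called genes. The cluster covers 186 kb of chromosome 6 (chr6:149883375-150069095), and all tested genes there and within 100 kb on either side were read, a window chosen after the ligands' values were known. Of 8 tested genes from RAET1E to ULBP3, ULBP1 was the 1 gene that rose in each line, while 4 fell in H1975 (RAET1E, RAET1G, ULBP2 and RAET1L) and 4 in HCC44 (RAET1E, ULBP2, RAET1K and ULBP3). Over all tested genes, 14.6% rose and 16.7% fell in H1975, and 17.5% rose and 17.4% fell in HCC44. RAET1E, a further NKG2D ligand gene also called ULBP4, went from 1.07 ± 0.29 to 0.349 ± 0.014 CPM (SD, n = 2) in H1975, a log2 fold change of -1.60 ± 0.33 (adjusted p 0.0043). In HCC44 it went from 1.42 ± 0.32 to 0.492 ± 0.0059 CPM (-1.53 ± 0.32, adjusted p 0.00375). RAET1L, also called ULBP6, went from 2.52 ± 0.49 to 0.498 ± 0.085 CPM in H1975 (-2.33 ± 0.32, adjusted p 0.000421). HCC44 hardly expressed it, with 8 counts over the DMSO libraries and 1 over the ACBI1 libraries, a ratio of 7.96 (exact 95% interval 1.07 to 353, counting error only). By edgeR's test, which includes the spread between libraries, RAET1L was not called in HCC44 (adjusted p 0.0571). The pseudogene RAET1K, the next tested gene after ULBP1, fell in HCC44 (-0.92 ± 0.32, adjusted p 0.0477) and was not called in H1975 (0.16 ± 0.33, adjusted p 0.755). RAET1E-AS1, the antisense gene that overlaps RAET1G, was not called in H1975 (0.43 ± 0.28, adjusted p 0.272) or HCC44 (0.55 ± 0.31, adjusted p 0.197). Of the flanking genes, PCMT1, a protein repair methyltransferase, fell in both lines (-0.33 ± 0.09 and -0.62 ± 0.09), LRP11 rose in HCC44 (0.64 ± 0.16) and PPP1R14C fell in H1975 (-1.26 ± 0.35).

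Reads cannot always be assigned among these near-copies. ULBP2 shares 29.4% of its 50-base windows with RAET1L and 11.6% with RAET1G, and reads listed as not aligned uniquely made up 3.62 to 4.67% of each table. Summed, the counts of ULBP2, RAET1G and RAET1L fell by 1.11 in H1975 (SE 0.15 and adjusted p 0.000402). In HCC44 this sum fell by 1.78 (SE 0.15 and adjusted p 1.68e-05). ULBP1 shares 6.85% of its windows with RAET1K and 1.97% with ULBP3. RAET1E shares 33.0% with AL355312.5, a gene model that overlaps it on the same strand, but no gene of that name was counted here.

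**Figure D4:**
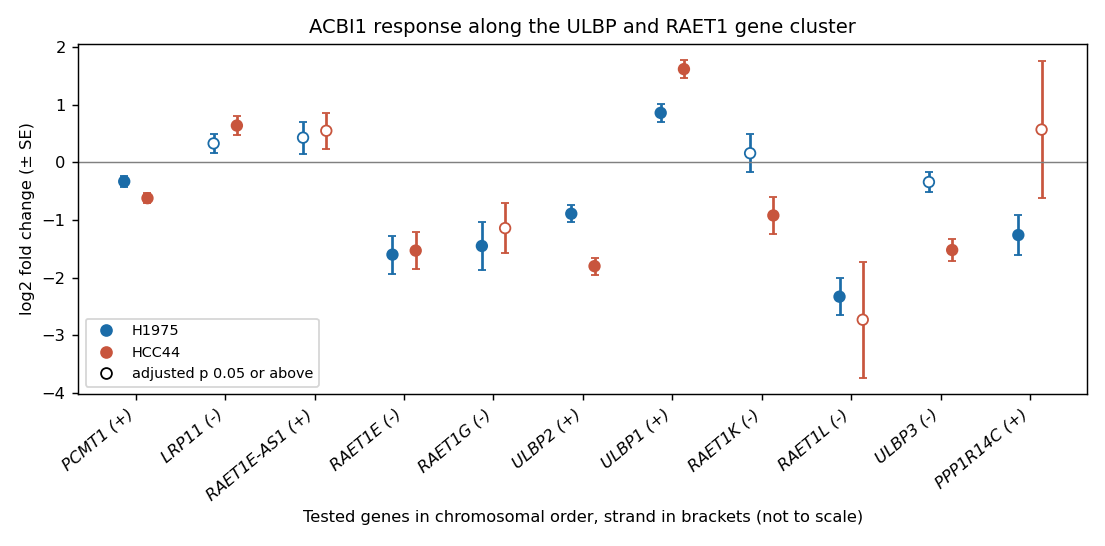
Log2 fold change ± SE (y axis) with ACBI1 in H1975 (blue) and HCC44 (red) for the 11 tested genes of the cluster and its flanks in chromosomal order (x axis, not to scale), with open points where the adjusted p was 0.05 or above. ULBP1 lies above 0 in both lines, at 0.86 and 1.62, next to ULBP2 at -0.89 and -1.80.

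A list of 13 other activating or co-stimulatory ligands held RAET1E, RAET1L and ligands of receptors other than NKG2D, and CD48 and NID1 did not pass the filter. In H1975, 1 of the 11 tested rose and 3 fell (all tested genes: 14.6% higher and 16.7% lower), with a median log2 fold change of -0.26. In HCC44, where PDGFD had no count, 0 of 10 rose and 5 fell (all tested genes: 17.5% higher and 17.4% lower), with a median of -0.39. Without RAET1E and RAET1L, a split made after their values were seen, 1 of 9 rose and 1 fell in H1975 (median -0.25). On the same basis 0 of 8 rose and 4 fell in HCC44 (median -0.26). PVR, which binds DNAM-1, went from 515 ± 18 to 301 ± 32 CPM in HCC44 (-0.77 ± 0.10, adjusted p 0.000193) and was at 379 ± 25 and 319 ± 20 CPM in H1975 (adjusted p 0.08). The PVR responses differed by -0.53 ± 0.14 (adjusted p 0.0246). NECTIN2, the other DNAM-1 ligand, went from 121 ± 2.7 to 84.5 ± 5.8 CPM in HCC44 (-0.51 ± 0.10, adjusted p 0.0024) and was not called in H1975 (-0.22 ± 0.10, adjusted p 0.121). BAG6, a chaperone that can bind NKp30 when released, fell in HCC44 (-0.25 ± 0.08, adjusted p 0.0395) and was not called in H1975 (-0.16 ± 0.08, adjusted p 0.169). The remaining calls, named after their values were seen, were CD70, the ligand of CD27, which rose in H1975 (0.86 ± 0.14), CD58, the ligand of CD2, which fell there (-0.42 ± 0.14), and CLEC2B, the ligand of NKp80, which fell in HCC44 (-1.49 ± 0.38).

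Among 9 tested ligands of inhibitory NK receptors, none rose in either line, 6 fell in H1975 and 5 in HCC44, where 16.7% and 17.4% of all tested genes fell. The median in H1975 was -0.61. HLA-B, a MHC class I gene whose product can engage inhibitory killer cell immunoglobulin-like receptors, went from 433 ± 68 to 283 ± 34 CPM in H1975 (-0.61 ± 0.13, adjusted p 0.00464). In HCC44 it went from 613 ± 9 to 266 ± 31 CPM (-1.20 ± 0.13, adjusted p 6.34e-05). HLA-C, a further class I gene, fell in both lines (-0.64 ± 0.12 and -0.95 ± 0.12). HLA-F fell in H1975 (-0.51 ± 0.12, adjusted p 0.00995) but missed the threshold in HCC44 (-0.19 ± 0.12, adjusted p 0.265). Calls named after their values were seen were HLA-E in H1975 (-0.43 ± 0.09), CEACAM1 in both lines and CDH2 in HCC44. CEACAM1 and CDH2 rested on few reads. CEACAM1 had 126 counts under DMSO and 21 under ACBI1 in H1975, and 56 and 16 in HCC44. CDH2 had 22 counts under DMSO and 3 under ACBI1 in HCC44.

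Among 5 enzymes involved in shedding NKG2D ligands from the surface, calls in both directions were found in HCC44 only. MMP14, a membrane protease, read 429 ± 79 CPM under DMSO and 235 ± 38 CPM under ACBI1 in H1975 (-0.87 ± 0.14, adjusted p 0.00138). The HCC44 values were 314 ± 26 and 218 ± 13 CPM (-0.53 ± 0.14, adjusted p 0.0145). ADAM17, a sheddase of MICA and MICB, went from 114 ± 6.6 to 173 ± 4.1 CPM in HCC44 (0.60 ± 0.10, adjusted p 0.000909) and was not called in H1975 (0.12 ± 0.10, adjusted p 0.382). PDIA6, a disulfide isomerase, fell in HCC44 (-0.51 ± 0.11, adjusted p 0.00523) and was not called in H1975 (-0.08 ± 0.11, adjusted p 0.637). Thus 1 of the 5 fell in H1975, where 31.3% of all tested genes were called, with a list median of -0.25. In HCC44, where 34.9% were called, 1 rose and 2 fell, with a median of 0.09.

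Of 18 regulators linked to NKG2D ligand expression, 5 rose and 5 fell in H1975, and 5 rose and 2 fell in HCC44, with medians of -0.07 and -0.02. Over all tested genes, 14.6% rose and 16.7% fell in the first line and 17.5% and 17.4% in the second, so the HCC44 share called lies near the 34.9% of all genes. The DNA damage kinase genes CHEK1 (0.65 ± 0.11 and 1.27 ± 0.11) and CHEK2 (0.91 ± 0.14 and 0.71 ± 0.14) rose in both lines. The cell cycle factor gene E2F1 (0.76 ± 0.12 and 1.46 ± 0.13) rose as well. The following calls were named after their values were seen. MYC rose in both lines (0.43 ± 0.13 and 0.58 ± 0.13), and SP1, which binds GC boxes, fell in both (-0.36 ± 0.08 and -0.51 ± 0.08). The GC box motif was found before the RefSeq start of every ligand gene, risen or fallen, and a link to SP1 was not tested. CREBBP, EP300, ATF4 and STAT3 fell in H1975, by log2 fold changes between -0.38 and -0.27, and ATM fell in HCC44 (-0.44 ± 0.14).

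**Figure D5:**
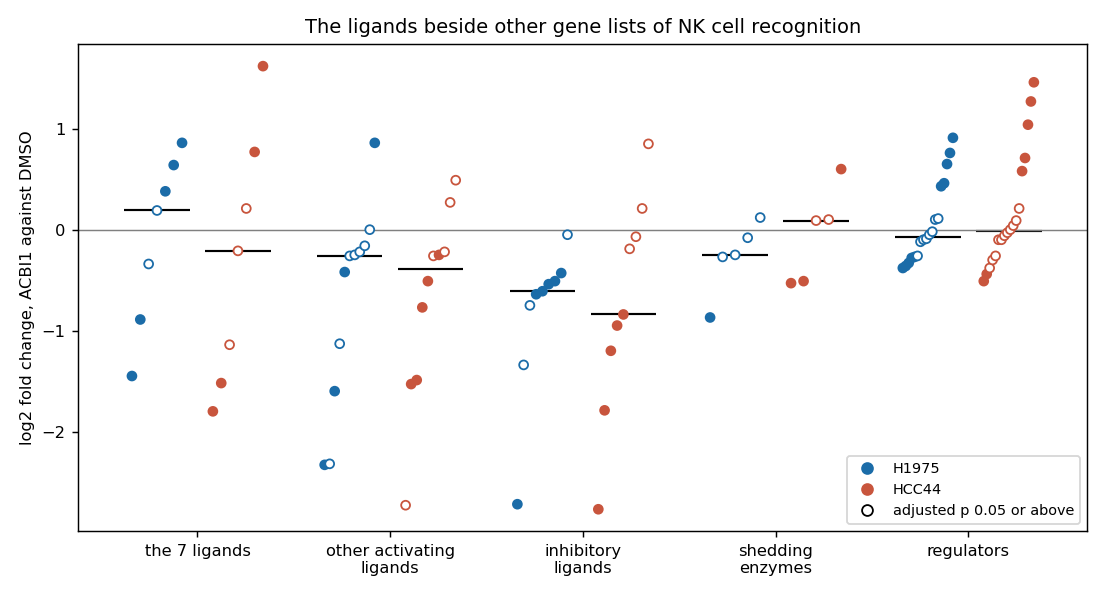
Log2 fold change (y axis) with ACBI1 of every tested gene with a count in the line, by list (x axis), in H1975 (blue) and HCC44 (red), with a line at each median and open points where the adjusted p was 0.05 or above. The 7 ligands lie between -1.45 and 0.86 for H1975 and between -1.80 and 1.62 for HCC44, while no called inhibitory ligand lies above 0.

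For the 5 ligands that were called in at least 1 line and averaged 5 CPM or more, which leaves out MICB and RAET1G, the genes whose log2 CPM followed each most closely over the 8 libraries were ranked among 11653 candidates averaging 5 CPM or more, as a description without a test. The points share 2 lines and 2 treatments, and with 4 groups many genes come close. For MICA they were PHACTR2 (Pearson r 0.995) and PIGP (0.994), for ULBP2 PLIN2 (0.994) and NRBF2 (0.993), and for ULBP3 ATP6V1E1 (0.996) and STARD10 (0.993). For ULBP1 they were SP2-AS1 (0.987) and NEO1 (0.986), and for NCR3LG1 SIX2 (0.998) and ENSG00000260196 (0.997). A high r need not mean a response of like size. With ACBI1, SIX2 changed by 2.19 in H1975 and -0.37 in HCC44, beside 0.64 and -0.21 for NCR3LG1. ENSG00000260196 changed by 0.56 and -0.21. The number of genes with r above 0.9 ranged, over these 5, from 144 for ULBP1 to 1792 for NCR3LG1.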

How the data were processed

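The deposited files held RNA-seq read counts per gene for each library, under 61228 gene names and 5 summary rows that were left out (14.3 to 15.8% of each table). The submitters' processing notes name TopHat2 2.1.1, HTSeq 0.11.0 and hg38, and the annotation and strand setting are not given in the sources used here. Lengths, positions and overlaps came from GENCODE release 29 (GRCh38). edgeR 4.0.16 in R 4.3.3 fitted 1 mean per group to all 8 libraries (filterByExpr, TMM, robust quasi-likelihood F-test, two-sided, 4 residual degrees of freedom, common biological coefficient of variation 0.123). The SE was the log2 fold change divided by the square root of F, without sign. Replicates differed by more than sampling noise (chi-square over degrees of freedom 21.7 to 43.5). The members and lists were chosen with earlier results of these data known. Named genes were all members, RAET1E, RAET1L, BAG6, PVR and NECTIN2, and otherwise up to 4 called genes per list and line with the largest change and at least 5 CPM, with other calls named as chosen after their values were seen. Some genes of these lists are not reported here. The procedure was tested on simulated data. Alternatives were DESeq2 1.42.0, other scalings, filters, dispersions and thresholds, each line alone, a replicate block, summed copies and each library left out. Figures used matplotlib 3.10.9.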

Additional observations from a re-analysis of the deposited data

Results flagged for a closer look

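By the test of the difference itself, the lines responded unequally to ACBI1 (edgeR's quasi-likelihood test, HCC44 minus H1975) in 4 of the 7 ligands. Over all tested genes, 18.6% were called by the same test. ULBP1 rose in both lines and more in HCC44, by 0.76 on the log2 scale (adjusted p 0.0351, range 0.001 to 0.166 over its alternatives). ULBP2 fell in both lines and more in HCC44, with a difference of -0.91 (adjusted p 0.0141, range 0.00102 to 0.0609). ULBP3 fell in HCC44 and was not called in H1975, with a difference of -1.17 (adjusted p 0.0108, range 7.78e-05 to 0.0398). NCR3LG1 rose in H1975 and was not called in HCC44, with a difference of -0.84 (adjusted p 0.00138, range 5.02e-06 to 0.00992). Groups of 2 libraries were too small for a test of outlying samples.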

How the results depend on the processing

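Within each line no ligand changed direction under any alternative. At an adjusted p under 0.01 the called ligands numbered 3 in H1975 and 1 in the difference between the lines, and the called genes 3691 in H1975, 4681 in HCC44 and 1654 in the difference. With each library left out in turn, called ligands numbered 3 to 5 in H1975, 4 to 5 in HCC44 and 2 to 4 in the difference, and called genes 3690 to 7161, 4945 to 7342 and 2341 to 4134. The difference between the lines for MICB, 0.02, was -0.02 with RLE factors and DESeq2, 0 with upper-quartile factors, -0.09 with library totals and -0.11 to 0.09 with a library left out. That for RAET1G, 0.31, was -0.06 to 0.81 with a library left out, and -0.68 with near-copies summed, where the sum stands for ULBP2 too. In the same way the DMSO difference of RAET1G became 0.47. Library totals moved the share of rises among calls to 72.3% for H1975 (46.6% with TMM) and to 60.5% for HCC44 (50% with TMM). The labels tie equal replicate numbers to no shared batch. Same-numbered libraries deviated together with a correlation of 0.374 in H1975 and 0.109 in HCC44. With the replicate number as a block, 6358 genes were called in the difference, and NCR3LG1 was called in HCC44 (-0.21, adjusted p 0.0343). A filter at 1 CPM in 2 libraries removed RAET1G, so it gave no value there, and counts of calls were not computed with near-copies summed. Depth limits what can be said of RAET1G and RAET1L. Where a result changed, the cause was not tested.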
